A study of Homo sapiens with 33 samples.

Results

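PEO1 and PEO6 are human cell lines of high-grade serous ovarian carcinoma that were established from the ascites of the same patient. PEO1 is the platinum-sensitive and PEO6 the platinum-resistant line of the pair, roles that come from the study's text, while the sample labels give only the line name and a replicate number. The comparison described here rests on 6 of the 33 libraries of the series, 3 labelled PEO1 and 3 labelled PEO6, chosen by line name alone. PEO4, a second resistant line from the same patient with 3 libraries, is set beside them throughout. All 3 lines were kept in RPMI medium with fetal bovine serum and sodium pyruvate, and no drug, transgene or other treatment preceded RNA extraction in any of them. Each line is a single cultured line, so that line and platinum response cannot be told apart. The labels do not say whether the 3 libraries of a line came from separate cultures, so p-values measure only the spread between these libraries, which may be technical.

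High-grade serous carcinoma is an epithelial tumour that carries markers of Müllerian epithelium such as PAX8 and WT1. Platinum drugs crosslink DNA, and tumour cells can withstand them by taking up less drug, by binding it with thiols, by repairing the lesions, by raising the threshold for apoptosis or by changing cell state. PEO1 is widely used as a BRCA2-deficient line whose later sister lines regained BRCA2 function. Interferon-stimulated genes form the antiviral programme that the transcription factors STAT2 and IRF9 and their partners switch on after interferon binds its receptor, and many of them stay on at a steady level in some tumour cell lines.

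Total estimated counts ranged from 25857434 to 33612962 in PEO1 and from 30350025 to 33805986 in PEO6, and 17955 to 18541 genes against 18710 to 19690 genes had a count. Pearson's r of log2 expression across genes was 0.961 to 0.994 between libraries of the same line and 0.853 to 0.912 between PEO1 and PEO6 libraries. Genes are not independent replicates, so these values describe the libraries only. The share of counts on nuclear ribosomal RNA moved with the line, at 2.70% to 4.86% in PEO1 and 6.45% to 7.71% in PEO6. The fold changes also moved with transcript length, the median log2 fold change being 0.30 in group 1 (shortest) and -0.17 in group 9 of 10 equal groups of genes ordered by length. This trend varied between libraries of a line. In group 1 the median log2 deviation from the gene mean was -0.28, 0.12 and -0.28 in PEO1 replicates 1, 2 and 3. It was 0.36, 0.27 and -0.14 in those of PEO6. PEO6 replicate 3 lay closer to the PEO1 libraries than the other PEO6 libraries did for many genes of growth and metabolism, whose values are therefore given library by library. The part of ribosomal RNA and of length in the gene results was tested only by leaving the ribosomal genes out and by a length offset, whose effects are given after the results.

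Levels are in TPM, a unit that scales each library to the same total and corrects for transcript length, and are always listed in the order of replicates 1, 2 and 3. Log2 fold changes are PEO6 over PEO1 with their standard errors (3 libraries each) from DESeq2 on estimated counts, and a gene was called where its DESeq2 adjusted p was under 0.05. In these bulk cultures a lower share of cells with a transcript and less of that transcript per cell cannot be told apart. Of 16803 genes tested, 6962 (41.4%) differed between PEO6 and PEO1, 3556 (21.2%) higher in PEO6 and 3406 (20.3%) lower. The median log2 fold change over all genes tested was 0.02. At least 2-fold differences were found for 2621 higher and 2002 lower genes, and at least 8-fold differences for 762 and 510. Against PEO4, 3043 of 16728 genes differed (18.2%), 1650 higher in PEO6 (9.86%) and 1393 lower (8.33%). Without replicates 1, 2 and 3 in turn, 4492, 3712 and 5260 genes differed between PEO6 and PEO1, and 1248, 752 and 5223 between PEO6 and PEO4. The counts of each gene list below are to be read against the shares over all genes.

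**Figure D1:**
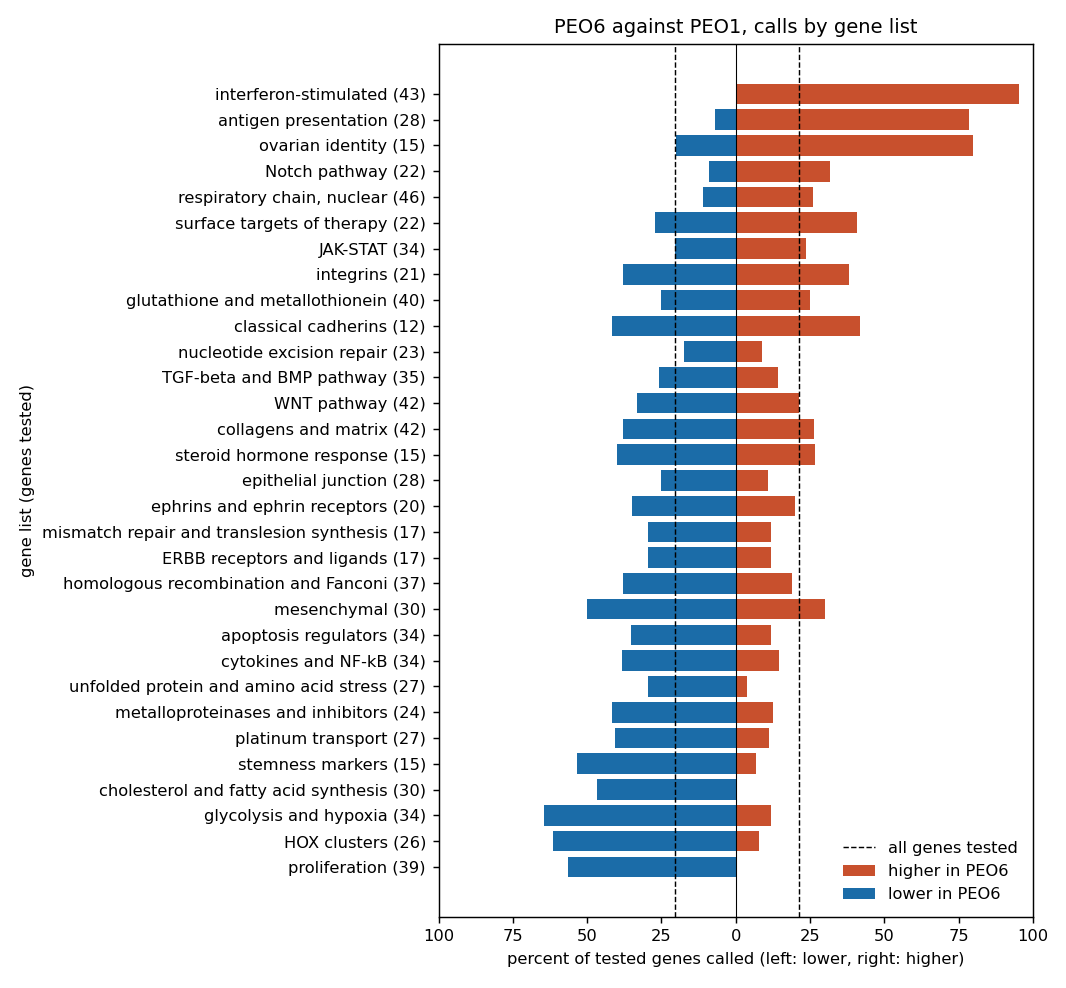
Share of the tested genes of each list that were called higher in PEO6 than in PEO1 (bars to the right, percent) or lower (bars to the left), for lists with at least 10 tested genes and without the panels the study chose. Dashed lines mark the shares over all genes tested, 21.2% higher and 20.3% lower, and the interferon-stimulated list, with 41 of 43 higher, stands farthest to the right.

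The interferon-stimulated genes were higher in PEO6 almost as a whole. Of 43 tested, 41 rose, against 21.2% of all genes, with a median log2 fold change of 1.89. By DESeq2 0 fell, and the number that fell was also 0 at an unadjusted p under 0.05, by edgeR and by limma. Their summed level was 708 to 890 TPM in the PEO1 libraries and 9090 to 9480 TPM in the PEO6 libraries. Shown here are 4 members, picked by the largest rise in mean TPM among those whose promoter at hand held the sequence named below. They are IFI27, a mitochondrial and nuclear envelope protein, the membrane proteins IFITM3 and IFITM1 that block virus entry, and IFI6. The last is an inhibitor of virus replication and apoptosis. Their promoters hold the sequence GAAANNGAAA, the core of the interferon-stimulated response element, more than once. Since a match was a condition of the choice, its presence in all 4 is not a result. Each stretch runs from 200 bases before to 10 bases after the RefSeq transcription start (build GRCh38.p14), 5′ to 3′ on the strand of the gene, with matches on either strand in capitals.
IFI27, chr14:94110536-94110745, plus strand: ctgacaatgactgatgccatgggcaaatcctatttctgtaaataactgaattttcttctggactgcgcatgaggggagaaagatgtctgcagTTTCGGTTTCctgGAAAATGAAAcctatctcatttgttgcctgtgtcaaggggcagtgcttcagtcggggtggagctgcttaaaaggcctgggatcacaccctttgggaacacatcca
IFITM3, chr11:320851-321060, minus strand: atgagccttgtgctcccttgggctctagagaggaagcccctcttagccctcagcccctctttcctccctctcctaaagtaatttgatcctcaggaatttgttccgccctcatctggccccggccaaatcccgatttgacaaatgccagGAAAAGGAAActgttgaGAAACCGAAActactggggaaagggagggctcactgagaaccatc
IFITM1, chr11:313840-314049, plus strand: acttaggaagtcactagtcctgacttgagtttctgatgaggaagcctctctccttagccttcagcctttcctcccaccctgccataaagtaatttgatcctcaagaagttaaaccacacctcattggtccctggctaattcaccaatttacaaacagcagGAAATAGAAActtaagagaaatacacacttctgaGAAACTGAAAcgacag
IFI6, chr1:27672183-27672392, minus strand: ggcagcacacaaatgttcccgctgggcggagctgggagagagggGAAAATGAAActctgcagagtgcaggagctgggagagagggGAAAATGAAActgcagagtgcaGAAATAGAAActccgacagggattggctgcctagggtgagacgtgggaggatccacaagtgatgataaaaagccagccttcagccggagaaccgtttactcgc
The matches began 108 and 95 bases before the start of IFI27, 52 and 35 before IFITM3, 40 and 6 before IFITM1, and 156, 115 and 93 before IFI6. Of 27305 promoters of 300 bases searched on both strands, counting overlapping matches, 996 (3.65%) held the sequence at least once. Promoters were at hand for 33 of the 43 genes (76.7%), too few for a comparison of the list with other genes. A match is a description of these letters, not a bound site.

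Of these 4 genes IFITM1 rose the most. Its level was 3.71, 3.23 and 1.53 TPM in PEO1 and 669, 693 and 639 TPM in PEO6 (log2 fold change 7.90 ± 0.29, adjusted p = 1.14e-157), with 982, 959 and 732 TPM in PEO4. IFI6 was at 6.19, 7.99 and 5.004 TPM in PEO1 and 661, 713 and 498 TPM in PEO6 (log2 fold change 6.60 ± 0.25, adjusted p = 1.4e-155), with 574, 518 and 348 TPM in PEO4. Both genes were low in all 3 PEO1 libraries and high in all 6 libraries of the resistant lines. IFI27 stood at 172, 217 and 120.1 TPM in PEO1 against 4207, 3654 and 3323 TPM in PEO6 (log2 fold change 4.40 ± 0.24, adjusted p = 3.22e-70), and IFITM3 at 128, 125 and 97.0 TPM against 1009.7, 1248 and 1043 TPM (log2 fold change 3.23 ± 0.21, adjusted p = 1.03e-51). PEO4 held 3094, 3238 and 2492 TPM of IFI27 and 1279.9, 1210.2 and 1018 TPM of IFITM3. In the test of PEO6 against PEO4, none of these 4 genes was called, with adjusted p of 0.273 for IFITM1, 0.431 for IFI6, 0.522 for IFI27 and 0.807 for IFITM3.

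Further members that rose included sensors, signal carriers and effectors. Among the sensors and signal carriers, IRF9, the DNA-binding subunit of the interferon-activated complex, was at 24.4, 28.1 and 17.1 TPM in PEO1 and 144, 134 and 97.6 TPM in PEO6 (log2 fold change 2.42 ± 0.24, adjusted p = 4.36e-23). STAT2, IRF7 and the RNA sensors IFIH1 and DDX58 rose by log2 fold changes of 1.29 ± 0.24, 2.83 ± 0.30, 1.24 ± 0.25 and 1.15 ± 0.27. The PEO6 libraries lay above the PEO1 libraries for all 5 of these genes. Among the effectors, MX1, a GTPase against virus particles, was at 4.21, 2.91 and 3.06 TPM in PEO1 and 137, 181 and 309 TPM in PEO6 (log2 fold change 5.87 ± 0.27, adjusted p = 1.35e-101), and ISG15, a ubiquitin-like modifier, at 21.8, 23.7 and 23.3 TPM and 336, 402 and 377 TPM (log2 fold change 4.01 ± 0.23, adjusted p = 4.89e-68). OAS1, which makes the second messenger that activates RNase L, had 7.42, 7.80 and 5.41 TPM in PEO1 and 138, 99.3 and 167 TPM in PEO6 (log2 fold change 4.28 ± 0.27, adjusted p = 6.9e-54). The spread of MX1 within PEO6 was wide, with replicate 3 above the others. IFIT2 rose from 28.7, 25.9 and 18.9 TPM to 53.2, 34.6 and 81.4 TPM (log2 fold change 1.12 ± 0.30, adjusted p = 0.000979), a call that was lost without replicate 3 (adjusted p = 0.107). ISG20 (log2 fold change -0.17 ± 0.44, adjusted p = 0.785) and SAMD9 (log2 fold change 0.24 ± 0.28, adjusted p = 0.518) did not pass the test.

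**Figure D2:**
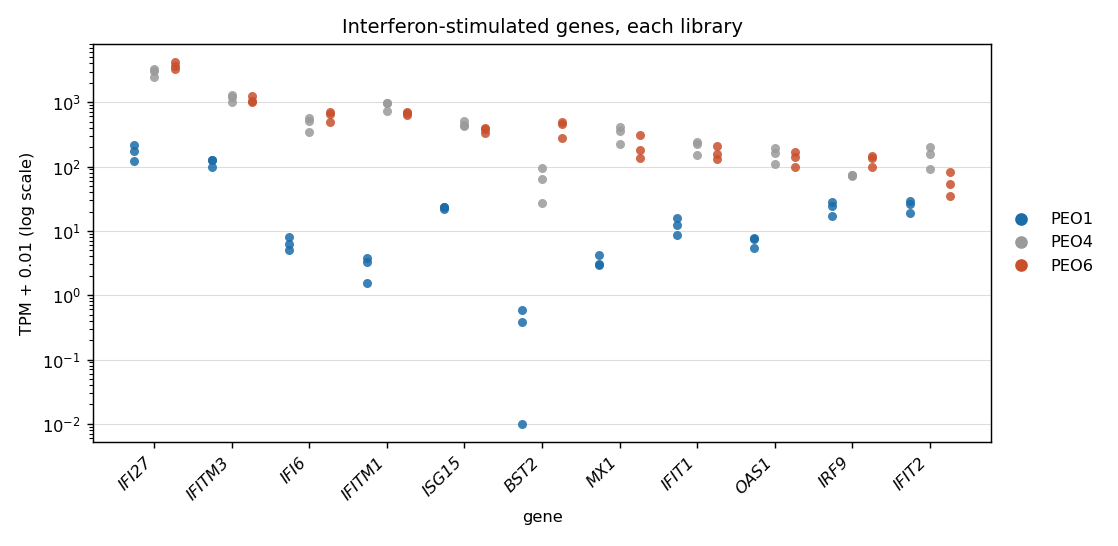
Level of 11 interferon-stimulated genes in each library (TPM + 0.01, log scale), 3 libraries per line for PEO1, PEO4 and PEO6. Each point is 1 library. The PEO1 points lie below all PEO6 points for every gene shown, and BST2 is the gene at which PEO6 stands clearly above PEO4.

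Between the resistant lines more of these genes were lower in PEO6 than higher. Of 43 tested against PEO4, 2 were higher (4.65%) and 13 lower (30.2%), against 9.86% and 8.33% of all genes. Without replicates 1, 2 and 3 the rises numbered 1, 1 and 3 and the falls 3, 1 and 20. The 2 higher ones were BST2, a tether of budding virus particles, and IFI44L. BST2 was at 0.569, 0.372 and 0 TPM in PEO1, 94.8, 64.6 and 26.6 TPM in PEO4 and 276, 451 and 489 TPM in PEO6 (PEO6 over PEO4, log2 fold change 2.80 ± 0.38, adjusted p = 8.03e-12), and the 3 lines did not overlap. IFI44L was at 0.777, 0.827 and 0.473, 32.4, 30.6 and 32.7 and 85.3, 84.97 and 57.0 TPM in the same order of lines (PEO6 over PEO4, log2 fold change 1.19 ± 0.32, adjusted p = 0.00238), a call lost without replicate 1 or 2 (adjusted p = 0.142 and 0.303). OAS2 went the other way, from 67.0, 50.4 and 26.1 TPM in PEO4 to 20.7, 16.3 and 29.8 TPM in PEO6 (log2 fold change -1.24 ± 0.37, adjusted p = 0.00735), although both stood far above the 0.812, 0.546 and 0.351 TPM of PEO1. Its call against PEO4 was lost without replicate 1 or 2 (adjusted p = 0.256 and 0.489). CCL5, a chemokine that draws T cells and is induced by the same pathway, was at 0.196, 0.0853 and 0 TPM in PEO1, 70.8, 63.2 and 63.3 TPM in PEO4 and 15.03, 9.51 and 19.6 TPM in PEO6. Since its PEO1 counts were at or under the floor of 3 counts per library, PEO6 stood at least 90.4-fold above PEO1, and it was lower than PEO4 (log2 fold change -2.27 ± 0.32, adjusted p = 6.18e-11).

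Genes of antigen presentation rose as well. Of 28 tested, 22 were higher in PEO6 than in PEO1 (78.6%) and 2 were lower (7.14%), against 21.2% and 20.3% of all genes. Their median log2 fold change was 1.24. Without replicates 1, 2 and 3 the rises numbered 22, 18 and 20 and the falls 2, 1 and 2. Among the class I heavy chains, HLA-C was at 249.9, 233 and 234 TPM in PEO1 and 606, 678 and 773 TPM in PEO6 (log2 fold change 1.5 ± 0.21, adjusted p = 9.83e-12) and HLA-B at 106, 86.0 and 108 TPM and 261, 258 and 328 TPM (log2 fold change 1.48 ± 0.21, adjusted p = 2.09e-11). HLA genes share near-identical sequence, so that reads may be split among them. The peptide transporter TAP1 stood at 10.1, 8.46 and 8.201 TPM in PEO1 and 37.5, 36.0 and 53.3 TPM in PEO6 (log2 fold change 2.21 ± 0.24, adjusted p = 3.58e-18), and the immunoproteasome subunit PSMB9 at 7.55, 6.21 and 6.04 TPM and 44.8, 45.4 and 44.9 TPM (log2 fold change 2.76 ± 0.27, adjusted p = 1.31e-23). B2M, the light chain that every class I molecule needs, had 3318, 4410.4 and 2396 TPM and 4303, 2454 and 3192 TPM and was not called (log2 fold change 0.01 ± 0.27, adjusted p = 0.98). PDIA3, a chaperone of class I loading, fell (log2 fold change -0.99 ± 0.21, adjusted p = 1.62e-05).

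The class II genes separated PEO6 from both other lines. HLA-DRA, the alpha chain of HLA-DR, was at 1.19, 1.71 and 0.208 TPM in PEO1, 1.16, 1.67 and 0.771 TPM in PEO4 and 173, 334 and 63.3 TPM in PEO6 (log2 fold change 7.54 ± 0.32, adjusted p = 9.9e-120; PEO6 over PEO4, log2 fold change 7.09 ± 0.40, adjusted p = 9.19e-67). All 3 PEO6 libraries stood more than an order of magnitude above the other 6, and replicate 2 was the highest. CD74, the chaperone that guards the class II groove, was at 42.4, 37.4 and 44.8 TPM in PEO1, 3.72, 2.15 and 1.05 TPM in PEO4 and 115, 332 and 97.5 TPM in PEO6 (log2 fold change 1.89 ± 0.31, adjusted p = 1.85e-08; PEO6 over PEO4, log2 fold change 6.19 ± 0.40, adjusted p = 8.22e-52). PEO1 and PEO4 thus differed in CD74 while both were low in HLA-DRA. HLA-DPA1 was at least 44.4-fold, HLA-DPB1 at least 53.3-fold and HLA-DMB at least 48.5-fold higher than the count floor in PEO1, and the call of HLA-DMB was lost without replicate 2 (adjusted p = 0.11). CIITA, the activator of class II transcription, was at 2.08, 1.42 and 0.621 TPM in PEO1 and 3.06, 5.29 and 2.13 TPM in PEO6 (log2 fold change 1.34 ± 0.35, adjusted p = 0.000694), a call lost without replicate 2 (adjusted p = 0.122). Many of these genes lie on the short arm of chromosome 6, where neighbouring genes of other function were higher too, with values given under the chromosomes. Its part in the change of the HLA genes was not tested.

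Markers of ovarian and Müllerian epithelium differed between PEO6 and PEO1 in all 15 cases in the fit with all replicates. Of these, 12 were higher in PEO6 and 3 lower, against 21.2% and 20.3% of all genes. Their median log2 fold change was 1.56. With replicates 1, 2 and 3 left out in turn, the rises numbered 9, 10 and 11 and the falls 3, 2 and 3. SOX17, a transcription factor of Müllerian and endodermal development, had 0 TPM in the 3 PEO1 and 3 PEO4 libraries and 8.04, 10.8 and 11.7 TPM in PEO6. It was at least 127-fold above the floor in PEO1. LHX1, a homeobox factor of kidney and Müllerian duct development, was at 0.0428, 0.168 and 0.196 TPM in PEO1, 0 in PEO4 and 28.6, 35.0 and 19.1 TPM in PEO6 (log2 fold change 7.59 ± 0.45, adjusted p = 2.87e-61). Of the 3 lines, PEO6 alone had either factor above 1 TPM. FOLR1, the folate receptor, was at 0, 0.174 and 0.0562 TPM in PEO1, 39.5, 35.4 and 22.9 TPM in PEO4 and 68.6, 99.7 and 85.2 TPM in PEO6, at least 402-fold above PEO1. MUC16, which encodes the CA125 antigen, rose from 30.8, 25.4 and 24.8 TPM to 112, 154 and 112 TPM (log2 fold change 2.45 ± 0.22, adjusted p = 3.16e-27), and its binding partner MSLN from 104, 79.8 and 81.8 TPM to 206, 307 and 302 TPM (log2 fold change 1.56 ± 0.23, adjusted p = 6.31e-11). The kidney-type cadherin CDH6 was at 29.9, 19.2 and 26.2 TPM and 100.6, 91.0 and 138 TPM (log2 fold change 2.11 ± 0.21, adjusted p = 4.93e-22) and also exceeded PEO4 (log2 fold change 2.38 ± 0.29, adjusted p = 9.9e-15). WFDC2, which encodes HE4, rose (log2 fold change 1.11 ± 0.26, adjusted p = 0.000128), as did EMX2 (log2 fold change 2.29 ± 0.24, adjusted p = 3.37e-20).

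The lineage markers PAX8 and WT1 were present in every library and differed by less than 2-fold. PAX8 was at 27.4, 21.9 and 41.0 TPM in PEO1 and 35.7, 46.6 and 54.7 TPM in PEO6 (log2 fold change 0.61 ± 0.23, adjusted p = 0.0197), and WT1 at 59.4, 52.5 and 102 TPM and 119, 118 and 139 TPM (log2 fold change 0.84 ± 0.23, adjusted p = 0.00133). The call of PAX8 was lost without replicate 1 or 2 (adjusted p = 0.0989 and 0.289) and without the replicate block (0.0531), and that of WT1 without replicate 1 or 2 (0.0509 and 0.0647). MECOM, a zinc finger factor often amplified in this tumour, fell from 8.67, 6.21 and 11.5 TPM to 0.0333, 0.124 and 0.0486 TPM (log2 fold change -7.14 ± 0.49, adjusted p = 2.01e-45). The oestrogen receptor gene ESR1 fell from 51.8, 45.9 and 52.5 TPM to 22.9, 22.4 and 27.9 TPM (log2 fold change -1.05 ± 0.21, adjusted p = 5.26e-06). Over the steroid hormone list, 4 of 15 genes were higher and 6 lower. CA12, an oestrogen-responsive carbonic anhydrase, fell (log2 fold change -6.79 ± 0.31, adjusted p = 4.03e-103). The study's panel of differentiated-state genes was chosen on these samples and is not independent evidence of its direction. All 6 were called higher, and 3, 4 and 3 of them without replicates 1, 2 and 3.

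**Figure D3:**
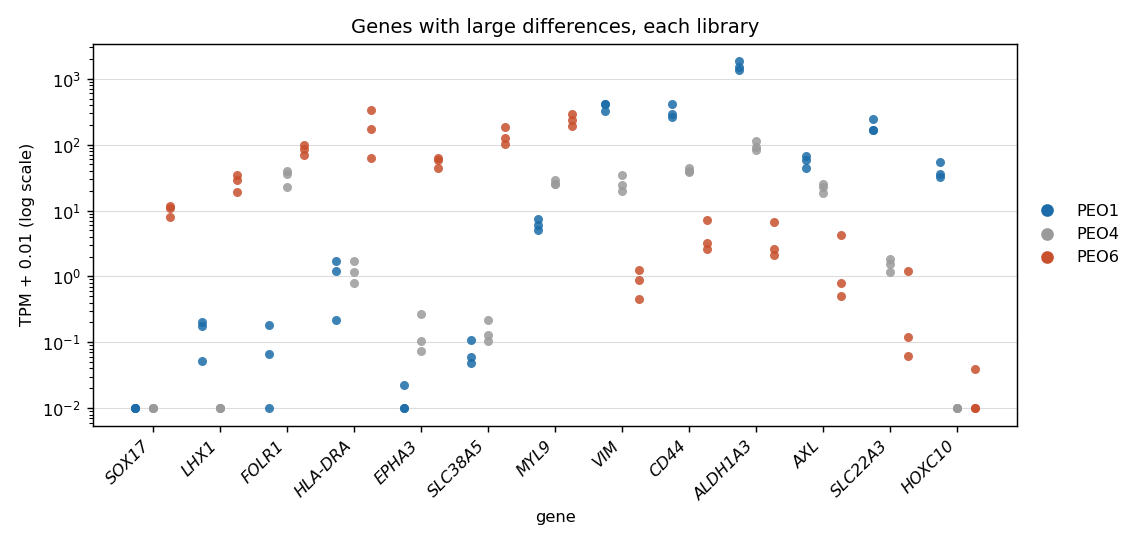
Level of 13 genes in each library (TPM + 0.01, log scale), 3 libraries per line. SOX17, LHX1, FOLR1, HLA-DRA, EPHA3, SLC38A5 and MYL9 lie higher in PEO6 than in PEO1, and VIM, CD44, ALDH1A3, AXL, SLC22A3 and HOXC10 lie lower, with no overlap between the 2 lines for any gene shown.

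Mesenchymal genes split into members that fell and members that rose. Of 30 tested, 15 were lower in PEO6 and 9 higher, with a median log2 fold change of -0.90. VIM, the intermediate filament vimentin, was at 328, 414 and 409 TPM in PEO1, 19.5, 24.4 and 35.0 TPM in PEO4 and 1.22, 0.449 and 0.858 TPM in PEO6 (log2 fold change -8.89 ± 0.34, adjusted p = 9.59e-149; PEO6 over PEO4, log2 fold change -5.07 ± 0.43, adjusted p = 8.96e-30). The receptor kinase AXL was at 57.8, 44.9 and 68.4 TPM in PEO1, 25.2, 22.5 and 18.1 TPM in PEO4 and 0.786, 0.5 and 4.24 TPM in PEO6 (log2 fold change -5.57 ± 0.37, adjusted p = 1.31e-48). For both genes PEO4 lay between the other lines without overlap. TGFBI, a matrix protein induced by TGF-beta, fell (log2 fold change -6.92 ± 0.34, adjusted p = 1e-90), as did FN1, fibronectin (log2 fold change -2.60 ± 0.24, adjusted p = 1.25e-24), and the transcription factors TWIST2 (log2 fold change -2.96 ± 0.30, adjusted p = 8.98e-22) and SNAI2 (log2 fold change -3.81 ± 0.67, adjusted p = 1.48e-07). Members of the contractile apparatus went up. MYL9, a myosin light chain, rose from 7.52, 5.92 and 5.12 TPM to 189, 296 and 239 TPM (log2 fold change 5.27 ± 0.24, adjusted p = 8.32e-101), ACTA2, smooth muscle actin, from 1.37, 1.55 and 1.42 TPM to 26.1, 38.3 and 33.6 TPM (log2 fold change 4.39 ± 0.30, adjusted p = 4.75e-47), and TAGLN, transgelin, from 2.51, 1.78 and 1.81 TPM to 30.4, 33.7 and 63.7 TPM (log2 fold change 4.32 ± 0.33, adjusted p = 7.24e-38). The fibrillar collagen COL3A1 was at 6.71, 8.28 and 5.47 TPM in PEO6, at least 210-fold above the floor in PEO1, and TWIST1 rose (log2 fold change 1.81 ± 0.32, adjusted p = 1.41e-07).

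Epithelial junction genes were mostly not called, as were most of all genes tested (41.4% called). Of 28 tested, 3 were higher and 7 lower, against 21.2% and 20.3% of all genes, with a median log2 fold change of -0.20. EPCAM was at 652, 613 and 684 TPM in PEO1 and 771, 794 and 579 TPM in PEO6 (log2 fold change 0.11 ± 0.23, adjusted p = 0.74), and KRT8 (log2 fold change 0.05 ± 0.22, adjusted p = 0.879) and KRT19 (log2 fold change 0.36 ± 0.21, adjusted p = 0.158) were not called either. The cytokeratin KRT7 fell from 1570.5, 1146 and 1438 TPM to 421, 541 and 762 TPM (log2 fold change -1.32 ± 0.22, adjusted p = 4.13e-08). EHF, an epithelial ETS factor, was at 30.7, 23.9 and 21.8 TPM in PEO1, 0.801, 0.494 and 0.314 TPM in PEO4 and 84.9, 61.1 and 118 TPM in PEO6 (log2 fold change 1.72 ± 0.26, adjusted p = 3.63e-10), and the tight junction gene CLDN3 rose from 35.6, 36.9 and 34.7 TPM to 105, 162 and 129 TPM (log2 fold change 1.85 ± 0.22, adjusted p = 9.26e-16). CDH1, E-cadherin, was at 55.2, 35.0 and 56.5 TPM and 21.7, 33.3 and 47.5 TPM (log2 fold change -0.58 ± 0.24, adjusted p = 0.0449). The lines overlapped for CDH1, and its call was lost without any 1 of the replicates (adjusted p = 0.424, 0.0906 and 0.0645), without the ribosomal RNA genes (0.0582) and without the replicate block (0.0912). Of the genes in the WNT and EMT panel that the study chose on these samples, 1 of 8 tested was higher (SOX17) and 3 were lower (CEBPA, ANKRD1 and KRT5).

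Several genes used as markers of stem-like tumour cells were far lower in PEO6. Of 15 tested, 8 fell and 1 rose, with a median log2 fold change of -1.21, and the single rise was lost without replicate 1 or 2. ALDH1A3, a retinaldehyde dehydrogenase, was at 1489, 1343 and 1839.9 TPM in PEO1, 90.7, 81.5 and 114 TPM in PEO4 and 2.60, 2.07 and 6.70 TPM in PEO6 (log2 fold change -8.88 ± 0.27, adjusted p = 5.99e-237). CD44, the hyaluronan receptor, was at 289, 267 and 417 TPM, 38.3, 39.4 and 43.9 TPM and 3.20, 2.60 and 7.14 TPM in the same order (log2 fold change -6.39 ± 0.24, adjusted p = 2.54e-150). The 3 lines stood in the same order for both genes, with no overlap. PROM1, which encodes CD133, did not follow that order, with 304, 213 and 269 TPM in PEO1, 0.17, 0.0928 and 0.118 TPM in PEO4 and 91.5, 86.6 and 155 TPM in PEO6. PEO6 was therefore lower than PEO1 (log2 fold change -1.31 ± 0.23, adjusted p = 1.77e-07) and far higher than PEO4 (log2 fold change 9.76 ± 0.45, adjusted p = 6.37e-102). KLF4, a reprogramming factor, fell (log2 fold change -1.70 ± 0.31, adjusted p = 4.9e-07) and MYC was not called (log2 fold change -0.26 ± 0.21, adjusted p = 0.347).

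The largest rises, by log2 fold change among genes whose normalised count averaged 100 or more, were led by EPHA3, an ephrin receptor kinase (chr3:89107621-89482134, GRCh38.p14). It was at 0.0128, 0 and 0 TPM in PEO1, 0.0647, 0.259 and 0.0961 TPM in PEO4 and 44.1, 57.7 and 63.2 TPM in PEO6, at least 1730-fold above the floor in PEO1. SLC38A5, a glutamine and serine carrier (chrX:48458544-48470260), was at 0.049, 0.0997 and 0.0393 TPM, 0.118, 0.21 and 0.0932 TPM and 103, 126 and 187 TPM in the same order (log2 fold change 11.05 ± 0.66, adjusted p = 3.9e-60). Both genes were near 0 in PEO4 as well. HEY2, a Notch target and repressor (chr6:125749632-125761269), had 0.0287, 0 and 0 TPM in PEO1, 0.888, 1.13 and 0.674 TPM in PEO4 and 29.2, 37.6 and 33.6 TPM in PEO6, at least 485-fold above the floor in PEO1. The choline-like carrier gene SLC44A4 stood at least 712-fold, the aggrecan-cleaving protease gene ADAMTS5 at least 360-fold and the collagen gene COL9A1 at least 179-fold above the floor in PEO1. COL9A1 spread widely in PEO6, at 12.4, 22 and 1.90 TPM, and its call was lost without replicate 1 or 2 (adjusted p = 0.0515 and 0.0615). NETO1, an accessory protein of glutamate receptors, was at 0.273, 0 and 0 TPM in PEO1, 9.46, 8.98 and 6.51 TPM in PEO4 and 25.7, 29.6 and 24.5 TPM in PEO6 (log2 fold change 11.59 ± 1.67, adjusted p = 6.9e-11). LOC102724560 was at least 207-fold higher, but its sequence is nearly the same as that of CBS on the same chromosome, so its reads cannot be assigned with certainty. SOX17 and BST2 complete the 10.

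The largest falls included 2 genes of the HOXC cluster. HOXC10 (chr12:53985146-53990279) was at 36.1, 32.7 and 54.1 TPM in PEO1, 0 in PEO4 and 0, 0 and 0.0294 TPM in PEO6, at least 483-fold lower against the floor, and HOXC9 was at least 72.8-fold lower. CBLN1, a synaptic organiser (chr16:49277917-49281838), fell from 104, 83.5 and 87.0 TPM to 0.0213, 0.115 and 0.0698 TPM (log2 fold change -10.43 ± 0.56, adjusted p = 3.81e-74), with 0.0633, 0.138 and 0.146 TPM in PEO4. These 3 genes were off or nearly off in both resistant lines. The cadherin gene CDH4 was at 4.35, 3.25 and 5.75 TPM in PEO1 and 0 in all PEO4 and PEO6 libraries, at least 184-fold lower. The membrane skeleton gene EPB41L3 (at least 322-fold), the xylosyltransferase gene XYLT1 (at least 133-fold) and the epidermal gene RPTN (at least 80.0-fold) were lower and likewise at 0 counts in PEO4. ESM1, an endothelial cell proteoglycan, was at 5.58, 7.84 and 33.3 TPM in PEO1 and 0 in PEO6, at least 191-fold lower, and IL1RL1, the interleukin 33 receptor, was at least 102-fold lower. The bradykinin receptor BDKRB1 was high in both other lines, with 16.8, 17.7 and 21.1 TPM in PEO1 and 12.2, 17.1 and 19.3 TPM in PEO4 against 0.0425, 0 and 0 TPM in PEO6, at least 140-fold lower than PEO1.

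HOX genes, which give cells their position along the body axis, were mostly lower. Of 26 tested, 16 fell and 2 rose, with a median log2 fold change of -2.62 (-2.48 with the 6 genes at the floor set to their bound), while 13 further members had too few counts for an adjusted p. The falls numbered 12, 11 and 11 when replicates 1, 2 and 3 were left out. HOXB7 fell from 33.3, 26.7 and 38.6 TPM to 4.66, 7.47 and 4.57 TPM (log2 fold change -2.60 ± 0.30, adjusted p = 8.52e-17), whereas HOXB4 of the same cluster rose from 30.0, 27.2 and 32.2 TPM to 82.8, 94.9 and 66.3 TPM (log2 fold change 1.42 ± 0.24, adjusted p = 4.06e-08). HOXB3, the other member that rose (log2 fold change 1.03 ± 0.25, adjusted p = 0.000287), was not called without replicate 2 (adjusted p = 0.0606). The classical cadherins, the cell adhesion receptors, gave 5 higher and 5 lower of 12 tested, with 4, 4 and 3 higher without replicates 1, 2 and 3. CDH8 was at 0 in PEO1 and PEO4 and at 4.24, 5.13 and 6.58 TPM in PEO6, at least 106-fold higher than PEO1, and CDH22 was at 3.86, 8.57 and 5.27 TPM, at least 96.3-fold higher. CDH3, P-cadherin, fell from 77.7, 61.6 and 71.0 TPM to 4.65, 6.05 and 7.46 TPM (log2 fold change -3.57 ± 0.22, adjusted p = 7.2e-55). Of the ephrins and their receptors, 4 were higher and 7 lower of 20, the falls being 4, 5 and 7 without replicates 1, 2 and 3. Among them the receptor EPHB2 fell (log2 fold change -2.36 ± 0.28, adjusted p = 4.3e-16) and the ligand EFNA5 rose (log2 fold change 1.60 ± 0.24, adjusted p = 3.26e-10).

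In the ERBB family, TGFA and its receptor fell while a neuregulin and its receptor rose. Of 17 tested, 2 rose and 5 fell. The ligand TGFA was at 102, 86.8 and 70.4 TPM in PEO1, 73.7, 66.7 and 49.2 TPM in PEO4 and 7.82, 6.46 and 10.4 TPM in PEO6 (log2 fold change -3.42 ± 0.25, adjusted p = 2.03e-39), and its receptor EGFR at 50.2, 20.6 and 34.5 TPM, 16.8, 11.01 and 4.79 TPM and 2.22, 3.65 and 12.5 TPM (log2 fold change -2.84 ± 0.37, adjusted p = 4.01e-13). ERBB4, a receptor of neuregulins, was at 0.04, 0.0117 and 0.00496 TPM in PEO1, 4.52, 4.57 and 2.62 TPM in PEO4 and 17.7, 25.8 and 17.2 TPM in PEO6 (log2 fold change 10.19 ± 0.55, adjusted p = 7.35e-75). PEO6 libraries did not overlap those of PEO1 for any of these 3 genes. The neuregulin gene NRG1 rose from 53.0, 46.3 and 54.3 TPM to 90.2, 66.9 and 119.9 TPM (log2 fold change 0.87 ± 0.24, adjusted p = 0.00113), a call lost without replicate 3 (adjusted p = 0.0675), and ERBB2 was not called (log2 fold change 0.15 ± 0.26, adjusted p = 0.67).

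Of 22 Notch genes tested, 7 were higher (31.8%) and 2 lower (9.09%), against 21.2% and 20.3% of all genes. Without replicates 1, 2 and 3 the rises numbered 5, 3 and 4, while the calls over all genes fell as well. Besides HEY2, the target HEYL rose from 0.0634, 0.124 and 0.0441 TPM to 0.832, 1.34 and 1.67 TPM (log2 fold change 4.18 ± 0.66, adjusted p = 2.57e-09), while the receptor NOTCH1 fell from 3.26, 1.23 and 3.06 TPM to 0.487, 0.87 and 1.16 TPM (log2 fold change -1.56 ± 0.36, adjusted p = 7.28e-05). In the TGF-beta and BMP pathway 5 of 35 were higher (14.3%) and 9 lower (25.7%), against 21.2% and 20.3% of all genes. INHBA, the activin subunit, was at 51.6, 46.8 and 77.8 TPM in PEO1, 1.22, 2.41 and 3.30 TPM in PEO4 and 0.0961, 0.0259 and 0.131 TPM in PEO6 (log2 fold change -9.47 ± 0.55, adjusted p = 3.58e-65). The ligand BMP7 went from 0.47, 0.248 and 0.21 TPM to 25.3, 29.7 and 39.2 TPM (log2 fold change 6.68 ± 0.33, adjusted p = 1.3e-87), with 43.0, 39.0 and 30.3 TPM in PEO4. INHBA and BMP7 thus moved in opposite directions. TGFB1 fell (log2 fold change -1.93 ± 0.25, adjusted p = 5.74e-13), and among the inhibitors of DNA binding that BMP signals induce, ID1 fell from 203, 181 and 153 TPM to 55.2, 19.5 and 41.8 TPM (log2 fold change -2.30 ± 0.31, adjusted p = 1.93e-12) while ID4 rose from 26.7, 23.6 and 16.8 TPM to 528, 664 and 344 TPM (log2 fold change 4.47 ± 0.21, adjusted p = 1.9e-97).

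The WNT pathway gave 9 higher and 14 lower of 42 tested, with 8, 5 and 4 higher without replicates 1, 2 and 3. The secreted inhibitor SFRP1 fell from 86.9, 66.2 and 91.9 TPM to 4.21, 2.52 and 5.61 TPM (log2 fold change -4.39 ± 0.24, adjusted p = 4.79e-70), the transcription factor TCF7 from 35.8, 29.8 and 54.8 TPM to 5.07, 4.36 and 7.42 TPM (log2 fold change -2.86 ± 0.23, adjusted p = 1.66e-32), and the ligand WNT7A from 12.2, 10.1 and 16.1 TPM to 0.218, 0.0669 and 1.13 TPM (log2 fold change -5.29 ± 0.51, adjusted p = 2.12e-23). In PEO4, TCF7 was at 42.7, 45.2 and 49.1 TPM, within the PEO1 range. LGR6, a receptor of R-spondins, rose from 2.03, 1.25 and 1.02 TPM to 30.3, 31.7 and 65.3 TPM (log2 fold change 4.78 ± 0.33, adjusted p = 3.89e-46) and the receptor FZD4 from 2.70, 1.97 and 2.34 TPM to 14.98, 17.3 and 27.6 TPM (log2 fold change 3.04 ± 0.25, adjusted p = 5.14e-33). AXIN2, a feedback target of the pathway, was at 0.573, 0.445 and 0.542 TPM in PEO1, 10.0, 6.83 and 6.08 TPM in PEO4 and 1.07, 1.37 and 2.26 TPM in PEO6 (log2 fold change 1.5 ± 0.44, adjusted p = 0.00282), a call lost without replicate 2 or 3 (adjusted p = 0.0928 and 0.157). The PEO4 libraries stood above both other lines for AXIN2.

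Cytokine and NF-kB genes were more often lower. Of 34 tested, 13 fell and 5 rose, and without replicates 1, 2 and 3 the falls were 10, 8 and 7 and the rises 2, 4 and 3. IL18 fell from 107, 132 and 106 TPM to 26.8, 29.0 and 21.9 TPM (log2 fold change -2.17 ± 0.24, adjusted p = 6.5e-18) and IL23A from 9.82, 12.4 and 14.6 TPM to 1.04, 0.7 and 1.504 TPM (log2 fold change -3.54 ± 0.43, adjusted p = 9.09e-15). Among the rises, CCL28, a mucosal chemokine, went from 3.42, 1.56 and 1.80 TPM to 17.5, 11.7 and 25.4 TPM (log2 fold change 3.12 ± 0.38, adjusted p = 3.2e-15), and CXCL10, induced by interferon, was called (log2 fold change 3.07 ± 0.93, adjusted p = 0.00367) but not without replicate 1 or 3 (adjusted p = 0.187 and 0.168). The JAK-STAT list held 8 higher (23.5%) and 7 lower (20.6%) genes of 34, close to the 21.2% and 20.3% of all genes. Its rises were 5, 4 and 4 without replicates 1, 2 and 3. CISH, a feedback inhibitor of STAT5, fell from 14.0, 12.5 and 10.2 TPM to 0.943, 0.46 and 0.552 TPM (log2 fold change -4.26 ± 0.36, adjusted p = 4.5e-31), SOCS2 from 7.45, 7.32 and 8.29 TPM to 0.795, 0.269 and 1.38 TPM (log2 fold change -3.51 ± 0.43, adjusted p = 1.11e-14), and the kinase JAK1 from 98.3, 71.7 and 107 TPM to 41.6, 33.2 and 58.1 TPM (log2 fold change -1.10 ± 0.21, adjusted p = 2.32e-06). JAK3 rose from 0.0796, 0.0347 and 0.055 TPM to 0.926, 1.36 and 0.696 TPM (log2 fold change 4.12 ± 0.63, adjusted p = 1.13e-09). Of the 6 tested genes of a STAT panel that the study chose on these samples, 2 were higher (CCL5 and ERBB4) and 2 lower (CD44 and BIRC3).

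Genes of platinum transport were more often lower in PEO6. Of 27 tested, 11 fell and 3 rose, with a median log2 fold change of -0.39, and the falls were 6, 6 and 8 without replicates 1, 2 and 3. SLC22A3, an organic cation transporter, was at 248, 166 and 169 TPM in PEO1, 1.52, 1.82 and 1.14 TPM in PEO4 and 0.0519, 0.112 and 1.19 TPM in PEO6 (log2 fold change -9.96 ± 1.10, adjusted p = 3.47e-18). All 6 libraries of the resistant lines stood below 2 TPM of SLC22A3. The copper importer SLC31A1 was at 17.9, 12.4 and 17.1 TPM in PEO1 and 6.68, 6.49 and 16.4 TPM in PEO6 (log2 fold change -0.82 ± 0.27, adjusted p = 0.00801), overlapping between the lines, and its call was lost without replicate 1 or 2 (adjusted p = 0.154 and 0.19) and without the replicate block (0.0569). The efflux pump ABCC3 fell from 17.1, 11.6 and 7.05 TPM to 3.74, 5.14 and 5.41 TPM (log2 fold change -1.24 ± 0.30, adjusted p = 0.000221). ABCC1 fell less (log2 fold change -0.57 ± 0.23, adjusted p = 0.0329) and was not called without any 1 of the replicates (adjusted p = 0.305, 0.0923 and 0.0762). The copper pumps ATP7A (log2 fold change 0.70 ± 0.32, adjusted p = 0.0638) and ATP7B (log2 fold change 0.41 ± 0.34, adjusted p = 0.355) and the volume-regulated channel gene LRRC8D (log2 fold change -0.28 ± 0.22, adjusted p = 0.329) were not called, though ATP7A was called higher without replicate 1 (adjusted p = 0.0354), without the replicate block (0.049), by edgeR (0.0317) and with the gene length offset (0.0113). The rises of the list numbered 5 without the block and 5 by edgeR. Of the 4 transport genes in a panel the study chose on these samples, 2 were lower (ABCC3 and SLC22A3) and 0 higher by DESeq2. The number higher was 1 at an unadjusted p under 0.05, 1 by edgeR and 0 by limma.

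The glutathione, metallothionein and redox list was even, with 10 higher and 10 lower of 40 tested. GCLM, the modifier subunit of the rate-limiting enzyme of glutathione synthesis, fell from 66.0, 54.0 and 85.8 TPM to 9.88, 8.75 and 15.8 TPM (log2 fold change -2.64 ± 0.22, adjusted p = 6.06e-31). HMOX1, haem oxygenase, fell from 12.3, 11.5 and 11.6 TPM to 1.02, 0.872 and 1.63 TPM (log2 fold change -3.39 ± 0.36, adjusted p = 4.44e-19), and the metallothionein MT2A from 1370.1, 1230.1 and 1890.1 TPM to 307, 248 and 765 TPM (log2 fold change -1.92 ± 0.25, adjusted p = 1.64e-13). PEO6 replicate 3 was the nearest to PEO1 for these 3 genes, and no libraries overlapped. GSTA1, a glutathione transferase, was at 3.01, 4.36 and 3.37 TPM in PEO6, at least 18.9-fold above the floor in PEO1. GSTP1 was not called (log2 fold change 0.05 ± 0.20, adjusted p = 0.881).

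In homologous recombination and the Fanconi pathway, which repair platinum crosslinks, 14 of 37 genes tested fell and 7 rose, with a median log2 fold change of -0.40. Without replicates 1, 2 and 3 the falls numbered 8, 3 and 15 and the rises 3, 3 and 4. The nuclease EXO1 fell (log2 fold change -2.67 ± 0.24, adjusted p = 1.03e-26), as did the recombination gene XRCC2 (log2 fold change -1.41 ± 0.25, adjusted p = 1.63e-07). RAD50, a subunit of the break sensor, rose from 27.3, 23.4 and 29.9 TPM to 62.9, 63.8 and 62.0 TPM (log2 fold change 1.21 ± 0.22, adjusted p = 2.11e-07), and RAD52, an annealing protein, from 4.22, 3.76 and 4.21 TPM to 7.98, 9.30 and 9.81 TPM (log2 fold change 1.22 ± 0.27, adjusted p = 5.54e-05). BRCA2 stood at 1.35, 0.778 and 1.77 TPM in PEO1, 2.20, 1.88 and 1.43 TPM in PEO4 and 1.10, 0.877 and 2.38 TPM in PEO6, overlapping among the lines (log2 fold change 0.08 ± 0.29, adjusted p = 0.847). BRCA1 was at 31.4, 20.8 and 26.04 TPM and 11.7, 10.1 and 24.2 TPM (log2 fold change -1.01 ± 0.29, adjusted p = 0.00229), a call lost without replicate 1 or 2 (adjusted p = 0.11 and 0.107). These counts carry no information on the reading frame of either gene.

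Nucleotide excision repair gave 2 higher and 4 lower of 23, and mismatch repair with translesion synthesis 2 and 5 of 17. The falls of the first list were 2, 2 and 3 and its rises 1, 0 and 1 without replicates 1, 2 and 3, and the falls of the second were 4, 1 and 4. ERCC1, an excision nuclease subunit, was not called (log2 fold change 0.16 ± 0.22, adjusted p = 0.595). RAD18, the ubiquitin ligase that starts translesion synthesis, fell from 34.6, 23.1 and 37.5 TPM to 13.7, 10.4 and 18.9 TPM (log2 fold change -1.18 ± 0.22, adjusted p = 5.38e-07). Among regulators of apoptosis, 12 of 34 fell and 4 rose. The falls were 8, 5 and 10 and the rises 4, 2 and 3 with the replicates left out in turn. The pro-death genes BCL2L11, known as BIM (log2 fold change -1.36 ± 0.26, adjusted p = 1.07e-06), and BAX (log2 fold change -0.73 ± 0.23, adjusted p = 0.00587) fell. The call of BAX was lost without replicate 1, 2 or 3 (adjusted p = 0.0802, 0.0523 and 0.0812). The initiator caspase gene CASP8 rose from 12.1, 8.72 and 9.67 TPM to 33.1, 26.8 and 41.4 TPM (log2 fold change 1.67 ± 0.24, adjusted p = 5.08e-11). Both pro-death and survival genes were among those that fell, BIRC3 being an inhibitor of apoptosis (log2 fold change -1.67 ± 0.27, adjusted p = 9.89e-09).

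Genes of proliferation were lower in PEO6. Of 39 tested, 22 fell and 0 rose by DESeq2, with a median log2 fold change of -0.91. The number that rose was 0 at an unadjusted p under 0.05 and by limma and 1 by edgeR. The falls numbered 22, 16 and 22 when replicates 1, 2 and 3 were left out. FOXM1, the driver of mitotic genes, was at 171, 104 and 239 TPM in PEO1 and 22.9, 19.1 and 73.2 TPM in PEO6 (log2 fold change -2.37 ± 0.24, adjusted p = 1.22e-20), and MYBL2, its partner, at 119, 70.7 and 152 TPM and 10.9, 11.2 and 43.5 TPM (log2 fold change -2.65 ± 0.27, adjusted p = 7.25e-21). In PEO4, MYBL2 was at 159, 146 and 106 TPM, overlapping PEO1. Both genes were lower in every PEO6 library than in every PEO1 library. RRM2, a subunit of ribonucleotide reductase, fell from 138, 99.5 and 224 TPM to 68.0, 36.4 and 102 TPM (log2 fold change -1.22 ± 0.24, adjusted p = 1.77e-06). MKI67 was at 35.0, 18.3 and 50.9 TPM in PEO1 and 8.39, 7.28 and 30.3 TPM in PEO6 (log2 fold change -1.43 ± 0.26, adjusted p = 4.31e-07), and its libraries overlapped, since PEO6 replicate 3 exceeded PEO1 replicate 2. The call of MKI67 was lost without the replicate block (adjusted p = 0.2), where 21 genes of the list fell. TOP2A, topoisomerase II alpha, fell as well (log2 fold change -0.96 ± 0.26, adjusted p = 0.000837), a call lost without replicate 2 (adjusted p = 0.111). CCND1, cyclin D1, was at 237, 157 and 266 TPM and 71.8, 85.1 and 167 TPM (log2 fold change -1.12 ± 0.23, adjusted p = 8.71e-06). The lines overlapped for RRM2 and CCND1 as well, and for FOXM1, MYBL2, MKI67 and CCND1 the PEO6 replicate 3 was the highest of its line.

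**Figure D4:**
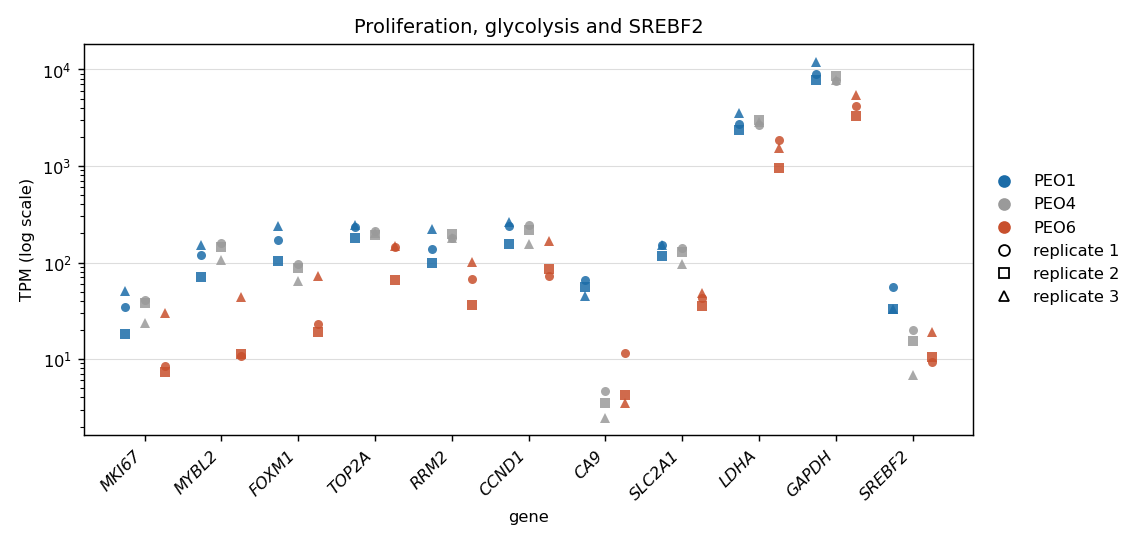
Level of 11 genes of proliferation, hypoxia, glycolysis and sterol sensing in each library (TPM, log scale), 3 libraries per line, the marker shape giving the replicate number. PEO6 replicate 3 is the PEO6 library nearest to PEO1 for MKI67, MYBL2, FOXM1 and CCND1, and its MKI67 level, 30.3 TPM, lies above the lowest PEO1 level, 18.3 TPM.

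Glycolysis and hypoxia genes were also lower, 22 of 34 tested against 4 higher, with a median log2 fold change of -0.78. Without replicates 1, 2 and 3 the falls numbered 20, 13 and 21 and the rises 2, 2 and 2. CA9, a carbonic anhydrase induced by hypoxia, was at 65.4, 56.4 and 45.2 TPM in PEO1, 4.71, 3.51 and 2.48 TPM in PEO4 and 11.7, 4.24 and 3.53 TPM in PEO6 (log2 fold change -3.32 ± 0.32, adjusted p = 3.48e-23). The glucose carrier SLC2A1 was at 152, 116.2 and 153 TPM in PEO1 and 42.8, 35.5 and 47.9 TPM in PEO6 (log2 fold change -1.76 ± 0.21, adjusted p = 1.78e-15), the glycolytic enzyme GAPDH at 8889, 7754 and 12013 TPM and 4213, 3281 and 5427 TPM (log2 fold change -1.17 ± 0.22, adjusted p = 6.32e-07), and LDHA, lactate dehydrogenase, fell (log2 fold change -1.07 ± 0.26, adjusted p = 0.000195). No PEO6 library reached the PEO1 range for CA9, SLC2A1 or GAPDH. In cholesterol and fatty acid synthesis 14 of 30 fell and 0 rose by DESeq2, with 10, 6 and 16 falls without replicates 1, 2 and 3. The number that rose was 1 at an unadjusted p under 0.05, 1 by edgeR and 0 by limma. SREBF2, the sterol-sensing transcription factor, fell (log2 fold change -1.69 ± 0.28, adjusted p = 2.87e-08).

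Respiratory chain genes were less one-sided. Nuclear genes of the respiratory chain gave 12 higher and 5 lower of 46, with a median log2 fold change of 0.15. These genes are short, with a median in length group 1 of 10, and with a length offset the counts became 10 and 9. Without replicates 1, 2 and 3 the rises were 7, 13 and 9 and the falls 5, 3 and 4. The complex I subunit NDUFB9 rose from 567, 518 and 692 TPM to 1436, 1625 and 2514 TPM (log2 fold change 1.61 ± 0.21, adjusted p = 2.5e-13), and SDHC, a subunit of complex II, fell from 114, 99.7 and 123 TPM to 47.8, 43.3 and 74.3 TPM (log2 fold change -1.09 ± 0.22, adjusted p = 8.59e-06). Genes of the unfolded protein and amino acid response gave 1 higher and 8 lower of 27, with 6, 6 and 5 falls and 0, 0 and 1 rises without replicates 1, 2 and 3. The amino acid carrier SLC7A5 fell from 128, 69.9 and 149.8 TPM to 22.2, 35.7 and 54.4 TPM (log2 fold change -1.67 ± 0.26, adjusted p = 1.48e-09).

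Matrix genes changed in both directions. Of 42 collagens and other matrix genes tested, 11 were higher (26.2%) and 16 lower (38.1%), against 21.2% and 20.3% of all genes. Without replicates 1, 2 and 3 the rises numbered 12, 9 and 10 and the falls 11, 12 and 12. COL5A1 fell from 17.9, 10.3 and 10.0 TPM to 0.169, 0.114 and 0.332 TPM (log2 fold change -6.02 ± 0.34, adjusted p = 2.75e-68), and the basement membrane collagen COL4A1 from 14.7, 7.63 and 13.7 TPM to 0.546, 0.816 and 2.67 TPM (log2 fold change -3.44 ± 0.34, adjusted p = 1.47e-22), while COL12A1 rose from 0.966, 0.322 and 1.12 TPM to 9.002, 17.9 and 20.5 TPM (log2 fold change 4.31 ± 0.35, adjusted p = 1.01e-32). Among the 21 integrins tested, 8 were higher and 8 lower (38.1% each). ITGB5 fell from 247, 163 and 227 TPM to 9.02, 8.12 and 24.8 TPM (log2 fold change -4.08 ± 0.27, adjusted p = 2.32e-49), and the widely shared beta subunit ITGB1 from 582, 482 and 578 TPM to 199.8, 158 and 220.5 TPM (log2 fold change -1.54 ± 0.21, adjusted p = 1.31e-11). ITGA11, a collagen receptor subunit, rose from 0.0866, 0.0679 and 0.121 TPM to 6.21, 11.8 and 12.5 TPM (log2 fold change 6.86 ± 0.40, adjusted p = 1.74e-64). Of the metalloproteinases and protease inhibitors, 3 of 24 were higher (12.5%) and 10 lower (41.7%). ADAMTS1, a protease that cleaves versican, was at 0.732, 0.356 and 0.918 TPM in PEO1, 51.2, 41.8 and 28.9 TPM in PEO4 and 147, 155 and 239 TPM in PEO6 (log2 fold change 8.11 ± 0.26, adjusted p = 7.43e-215), and PLAU, urokinase, fell from 115, 107 and 212 TPM to 22, 22.3 and 36.6 TPM (log2 fold change -2.41 ± 0.22, adjusted p = 2.1e-26).

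Surface proteins that are targets of antibody therapy gave 9 higher (40.9%) and 6 lower (27.3%) of 22. Over all genes the shares were 21.2% and 20.3%. Without replicates 1, 2 and 3 the rises numbered 9, 7 and 7 and the falls 4, 5 and 6. Besides FOLR1, MSLN, MUC16 and CDH6, the phosphate carrier SLC34A2, also called NaPi2b, was at 0.316, 0.115 and 0.189 TPM in PEO1, 0.216, 0.183 and 0.0501 TPM in PEO4 and 29.3, 67.8 and 71.1 TPM in PEO6 (log2 fold change 8.05 ± 0.39, adjusted p = 9.52e-93; PEO6 over PEO4, log2 fold change 8.46 ± 0.48, adjusted p = 1.39e-67). VTCN1, the inhibitory ligand B7-H4, rose from 1.55, 1.44 and 0.415 TPM to 6.98, 4.83 and 9.57 TPM (log2 fold change 2.71 ± 0.46, adjusted p = 5.27e-08). Tissue factor, encoded by F3, fell from 197, 205 and 308 TPM to 11.6, 8.36 and 11.1 TPM (log2 fold change -4.53 ± 0.25, adjusted p = 1.26e-68) and L1CAM, a neural adhesion molecule, from 22.5, 13.6 and 20.1 TPM to 0.19, 0.824 and 1.19 TPM (log2 fold change -4.91 ± 0.38, adjusted p = 1.86e-36). SLC34A2 was nearly off in PEO4, unlike FOLR1.

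By the difference of mean TPM, the largest rises were RPL30, IFI27, RPS18, EEF1A1, RPL37A, RPL35, ATP5I and RPL38, and the largest falls RPS12, GAPDH, TMSB10, RPSA, RPS2, TUBA1B, RPL35A and ALDH1A3. Ribosomal protein genes have many processed copies, so their values are uncertain, and they moved both ways, RPS18 rising (log2 fold change 1.03 ± 0.22, adjusted p = 1.16e-05) and RPS12 falling (log2 fold change -1.23 ± 0.22, adjusted p = 2.73e-07). The calls of RPL30, EEF1A1, RPSA, RPS2 and RPL35A were each lost without at least 1 replicate, and those of RPL30 and EEF1A1 also without the replicate block (adjusted p = 0.123 and 0.0615). ATP5I, a subunit of the ATP synthase, rose from 678, 893 and 716 TPM to 2634, 2548 and 1617 TPM (log2 fold change 1.56 ± 0.25, adjusted p = 4.7e-09). TMSB10, which binds actin monomers, fell from 6514, 7376 and 7000.5 TPM to 3540.1, 2998 and 3308 TPM (log2 fold change -1.09 ± 0.23, adjusted p = 1.17e-05), and the tubulin gene TUBA1B from 3262, 2805 and 3498 TPM to 1134, 686 and 2122 TPM (log2 fold change -1.44 ± 0.27, adjusted p = 8.52e-07). PEO6 did not overlap PEO1 for these 3 genes.

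Differences also followed chromosome position. Chromosome 21 stood out, with a median log2 fold change of 0.93 over its tested genes, 62.8% of them higher in PEO6 and 4.05% lower, and a median of 0.37 against PEO4. Chromosome 6 had a median of 0.41, with 41.5% of genes higher and 25.8% lower. Chromosomes 22 and 15 had medians of -0.34 and -0.30. Genes whose normalised count averaged 10 or more (14586 genes) were ordered by RefSeq start on GRCh38.p14 and cut into 280 full windows of 50 neighbouring genes, which hold 14000 genes. The 586 genes left over at chromosome ends are in no window. The window medians ran from -1.18 to 1.64 with a middle value of -0.07, and 27 were at or above 0.5 and 25 at or below -0.5. The highest was chr6:26204610-29793073 on the short arm at 1.64, where 37 genes were higher and 1 lower. The next 3 windows, chr6:29826474-31652661, chr6:31652404-32817002 and chr6:32821831-35295985, which hold the HLA genes, had medians of 1.16, 1.36 and 1.22. Against PEO4 the medians of these 4 windows were 0.54, -0.03, 0.70 and 0.22. On the long arm of the same chromosome, 4 windows lay between -0.97 and -1.13, and between -0.77 and -1.08 against PEO4. The lowest window, chr22:41459717-45845307, was at -1.18, with 4 genes higher and 39 lower, but at -0.11 against PEO4. The number of gene copies was not measured, and its part in these values was not tested.

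**Figure D5:**
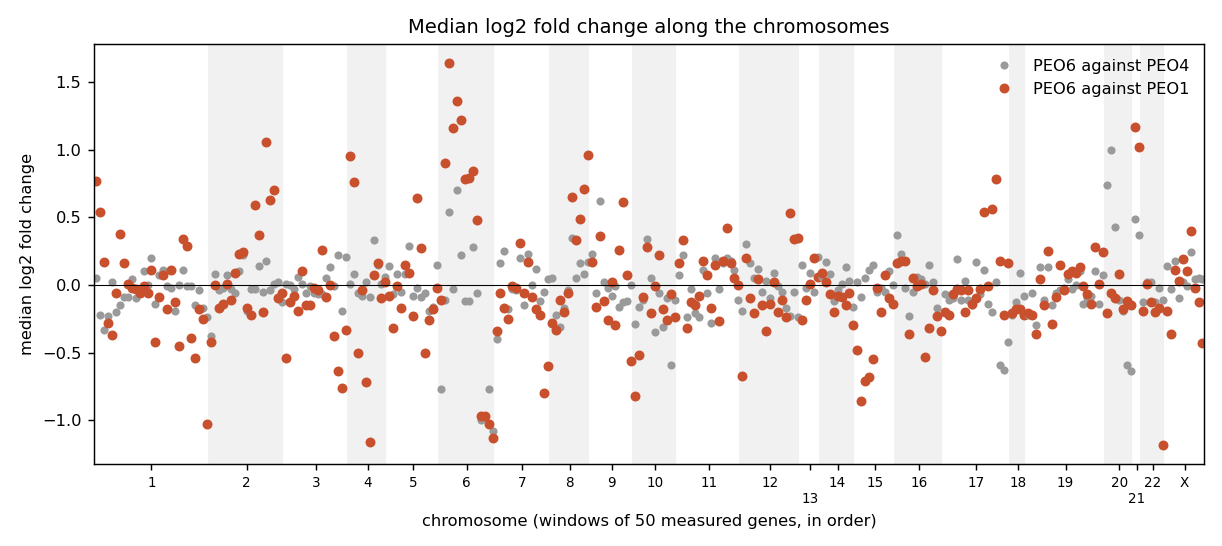
Median log2 fold change of PEO6 over PEO1 (orange) and PEO6 over PEO4 (grey) in 280 windows of 50 neighbouring genes, in chromosome order along the horizontal axis. The highest window for PEO6 over PEO1, at 1.64, lies on the short arm of chromosome 6, and 4 neighbouring windows of its long arm lie low in both comparisons.

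Some genes were at the count floor in one line and well above it on average in the other. With at most 3 counts in each library of one line and a normalised count averaging 100 or more in the other, 63 genes were at the floor in PEO1 and 28 in PEO6. The average is over 3 libraries, and of the 63 genes, IPO11-LRRC70 and SSX2 had 0 counts in PEO6 replicate 3 and were not called (adjusted p = 0.051 and 0.0565), both named after their values were seen. The other 61 were called higher and all 28 were called lower by DESeq2. The numbers were 91 and 47 at a minimum of 50 counts and 29 and 21 at a minimum of 200. PEO4 was also at the floor for 13 of the 63 genes and above it in all 3 libraries for 41. It was at the floor for 17 of the 28 genes and above it in all 3 libraries for 10. SOX17 and CDH8 belong to the first 13, and HOXC10, CDH4 and RPTN to the 17.

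The direct test against PEO4 showed where PEO6 was unlike the other resistant line. The largest rises by log2 fold change were LHX1, SOX17, CDH8, ADAMTS5 and SLC38A5. Relative to the floor in PEO4, LHX1 was at least 459-fold, SOX17 at least 111-fold, CDH8 at least 92.6-fold and ADAMTS5 at least 316-fold higher, and SLC38A5 was higher with a log2 fold change 9.99 ± 0.55, adjusted p = 8.74e-71. The calls of SOX17 (adjusted p = 0.0707 and 0.122) and CDH8 (0.0844 and 0.135) against PEO4 were lost without replicate 1 or 2. The largest falls were TMEM132E, BDKRB1, AKR1D1, GJC1 and FLJ26245. TMEM132E, a membrane protein gene, was at 8.11, 6.65 and 5.44 TPM in PEO4 and 0 in PEO6, at least 180-fold lower, with a call lost without replicate 1 or 2 (adjusted p = 0.0542 and 0.0726). BDKRB1 was at least 127-fold lower than in PEO4, and its call was lost without replicate 1 (adjusted p = 0.0609). AKR1D1, a bile acid reductase, was at 0.713, 0.264 and 0.192 TPM in PEO1, 93.5, 93.5 and 93.8 TPM in PEO4 and 0.399, 0.0861 and 0.644 TPM in PEO6 (PEO6 over PEO4, log2 fold change -8.22 ± 0.44, adjusted p = 3.52e-74), so that PEO4 alone had it on. The gap junction gene GJC1 was at 18.1, 13.9 and 22.1 TPM, 14.6, 14.1 and 13.2 TPM and 0.0495, 0.0916 and 0.0465 TPM, so that PEO6 alone had it off (log2 fold change -8.23 ± 0.40, adjusted p = 3.14e-91; PEO6 over PEO4, log2 fold change -7.96 ± 0.44, adjusted p = 6.29e-70).

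Most immune and endothelial markers were at the count floor in both lines, and fewer of the fibroblast markers were. Of 14 immune cell genes, 10 were at the count floor in PEO1 and 9 in PEO6, and 1 of 4 tested was higher and 1 lower, the rise (CD4) being lost without replicate 2 or 3. Their summed level was 31.0 to 35.9 TPM in PEO1 and 13.1 to 15.1 TPM in PEO6, most of it from CD68, a lysosomal gene of many cell types. CD3D, CD3E, MS4A1 and NKG7 were at 0 in all 6 libraries. Of the fibroblast genes, 2 of 7 tested were higher and 3 lower (1 without replicate 1), with a summed level of 164 to 220 TPM in PEO1 and 91.5 to 131 TPM in PEO6, and LUM and POSTN were at 0. At the count floor were 5 of the 10 fibroblast genes in PEO1 and 3 in PEO6. FAP, a serine protease of activated fibroblasts, was at 18.0, 14.6 and 9.05 TPM in PEO1 and 0, 0.0798 and 0 TPM in PEO6 (log2 fold change -10.08 ± 1.58, adjusted p = 2.46e-09). Of the endothelial genes, 0 of 3 tested were higher and 0 lower by DESeq2, also at an unadjusted p under 0.05, by edgeR and by limma, and 5 of 8 were at the floor in each line. Their summed level was under 1 TPM in all 6 libraries.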

How the data were processed

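RNA of untreated PEO1, PEO4 and PEO6 cells was sequenced with 3 libraries per line. The authors made poly(A)-selected libraries, sequenced them as 1 pool over several runs, and quantified them with salmon in nf-core/rnaseq 3.8.1 (Nextflow 22.04.5) against GRCh38. The submitters' processing notes also name DRAGEN, without a version. The annotation release, the salmon version and the use of strand are not given in the sources used here. The authors deposited estimated counts per gene, which need not be whole (88.4% were) and were rounded here, and TPM values, scaled per library and for transcript length, which were used for levels.

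The table held 29744 genes, of which 7514 were at 0 in all 9 libraries of the 3 lines. Groups came from the line name in the labels. Line was tested with replicate number as a second term in DESeq2 1.42.0 (R 4.3.3), as the study did, on the 6 libraries of each comparison, two-sided, with Benjamini-Hochberg adjustment over all genes tested and a threshold of 0.05. Alternatives were a fit without the replicate term, edgeR 4.0.16, trimmed-mean size factors, a filter of 10 counts in 3 libraries, limma 3.58.1 on log2(TPM + 1) or log2(TPM + 0.1) with and without a filter of 1 TPM, fits on 9 or 33 libraries, leaving out the 23 ribosomal RNA genes, leaving out each replicate number, and an offset for transcript length that was added after seeing the data. Only the main DESeq2 fit of PEO6 against PEO1 was run on simulated counts, in which some genes had known folds. The simulated counts held no replicate effect and no trend with transcript length. They therefore do not show how the fit handles these. Tables were handled with pandas 2.3.3 in Python 3.11.15.

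Members and gene lists (38, among them 4 panels that the study drew from these samples) were chosen with earlier results of these data known. Named genes were the 10 rises and 10 falls with the largest log2 fold change among calls whose normalised count averaged 100 or more and whose direction was shared by all 3 pairs of equal number, the 8 rises and 8 falls with the largest difference of mean TPM, 5 rises and 5 falls against PEO4, and list members. A fold against a line with at most 3 counts in each library was computed against that floor and is a lower bound for counting error only. List medians moved by at most 0.21 when such genes were set to their bound. Symbols were matched to RefSeq genes (GRCh38.p14) for 24914 genes, from which positions and promoter sequences were taken.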

Additional observations from a re-analysis of the deposited data

Results flagged for a closer look

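Among 981 genes of the lists and the rule for named genes, 33 had all PEO6 libraries on one side of the PEO1 libraries and all PEO4 libraries on the other. This share was not computed over all genes, so the 33 are only described. For 10 of these the line with the highest mean reached 10 TPM and PEO6 was called against both PEO1 and PEO4 by DESeq2. The 10 are given with the log2 fold change of PEO6 over PEO4. Since that call was a condition of the choice, the value is a description and not separate evidence. PEO4 was not tested against PEO1. LHX1 (12.83), CD74 (6.19) and EHF (7.30) were described above, PEO6 being the highest and PEO4 the lowest line.

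MMP7, matrilysin, was at 3.86, 7.32 and 2.43 TPM in PEO1, 0.227, 0.217 and 0 TPM in PEO4 and 33.9, 19.3 and 23.8 TPM in PEO6 (7.43). LAMA4, a laminin chain, was at 56.8, 46.7 and 41.7 TPM in PEO1, 34.7, 30.1 and 23.8 TPM in PEO4 and 70.7, 90.7 and 68.1 TPM in PEO6 (1.20), a call lost without replicate 2 (adjusted p = 0.202). RAD51B, a gene of recombination repair, was at 6.60, 7.49 and 6.57 TPM, 6.47, 6.43 and 4.60 TPM and 11.5, 9.96 and 10.9 TPM in the same order (0.93). Its call was lost without replicate 1 or 2 (adjusted p = 0.37 and 0.43) and by edgeR (0.0596).

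The other 4 were lowest in PEO6 and highest in PEO4. ADM, adrenomedullin, was at 37.8, 32.2 and 35.8 TPM in PEO1, 45.9, 46.0 and 68.1 TPM in PEO4 and 5.67, 3.46 and 3.95 TPM in PEO6 (-3.67). OVOL1, an epithelial zinc finger factor, was at 7.33, 4.44 and 5.15 TPM, 19.2, 19.7 and 16.7 TPM and 1.79, 1.49 and 2.35 TPM (-3.35). NR3C1, the glucocorticoid receptor, was at 56.3, 47.2 and 56.0 TPM, 119, 109 and 78.2 TPM and 37.3, 38.7 and 41.7 TPM (-1.45). FLJ26245 was at 44.2, 49.6 and 27.8 TPM, 109.9, 133 and 223 TPM and 1.25, 0.289 and 1.44 TPM (-7.48).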

How the results depend on the processing

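No call of PEO6 against PEO1 or PEO4 was called in the opposite direction under any alternative run. PEO6 against PEO1 gave 6962 genes, 7607 by edgeR, 5255 by limma on log2(TPM + 1) and 4172 by limma without the filter, and between 3712 and 5260 with a replicate number left out. PEO6 against PEO4 rested more on the fit, with 3043 genes, 2548 by edgeR, 1061 by limma, 1002 with the smaller pseudocount, 273 without the filter, 5072 with all 9 libraries in 1 fit, 4924 with all 33, and between 752 and 5223 with a replicate number left out. The limma fit without the filter tested more genes, and leaving out a number used fewer libraries. Even so, without replicate 3 more genes differed from PEO4 (5223) than in the main fit (3043). The cause of these differences was not tested.

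The replicate numbers did not pair the samples. The correlations of same-numbered deviations were -0.298, 0.202 and 0.288 for PEO6 with PEO1 and -0.419, -0.209 and -0.503 for PEO6 with PEO4, and PEO6 replicate 1 was closest to PEO1 replicate 2 (0.505), so not every sample correlated best with its own number. Without the replicate block 7094 genes were called against PEO1 and 4563 against PEO4. Of 168 named calls against PEO1, 162 passed without the block (not RPL30, EEF1A1, PAX8, CDH1, SLC31A1 and MKI67), 165 by edgeR, 164 with the length offset, 166 without ribosomal RNA genes, 148 by limma without the filter, 153 with all 33 libraries, and 156, 151 and 158 without replicates 1, 2 and 3. Of 27 against PEO4, 20, 20 and 27 passed without replicates 1, 2 and 3. The genes at the count floor in 1 line and above the minimum on average in the other numbered 91 and 47 at a minimum of 50 counts.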
